A study of Mus musculus with 2 samples.

Results

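Neuropeptides and granins are the cargo of dense core vesicles, and 10 of their genes were measured in Cajal-Retzius (CR) cells of the mouse hippocampus, out of 32285 genes counted. The peptide precursors were *Cck*, *Npy*, *Sst*, *Tac1*, *Penk* and *Adcyap1*, and the granins and granin-like proteins were *Vgf*, *Scg2*, *Chga* and *Chgb*. Each was matched by its gene symbol, 1 feature per symbol. The control library came from 4 pooled littermates that carried *ΔNp73-Cre*, 1 floxed and 1 wild-type *Cic* allele (*Cic* flox/+) and the tdT reporter, and the knockout library came from 4 pooled littermates with *ΔNp73-Cre*, *Cic* flox/flox and tdT. All mice were at postnatal day 14, and living tdT+ cells had been sorted from the dissected hippocampus. The control is therefore a conditional heterozygote that also expresses Cre. The deletion reaches only cells in which *ΔNp73-Cre* was active. The paper reports that most, but not all, hippocampal CR cells of the knockout line had lost the *Cic* product. The pools differ in sex, with 3 males and 1 female in the control and 2 males and 2 females in the knockout. With 1 library per genotype, no difference had a replicate check and no significance test was made.

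CR cells are early-born glutamatergic neurons that secrete reelin, and many of those in the hippocampus die in the first postnatal weeks. Capicua, the product of *Cic*, is a transcriptional repressor whose known targets include *Etv4*, *Etv5* and the member *Vgf*. The paper that reported these data already names all of these among the genes that differed between the genotypes in each cluster it compared. A neuropeptide is made as a larger precursor, enters dense core granules with the granins, is cut by prohormone convertases, trimmed by carboxypeptidase E and in many cases amidated before release. Granins help granules to form, and some are themselves cut into peptides. In the hippocampus, *Npy*, *Sst*, *Tac1* and *Cck* are best known from GABAergic interneurons, and *Penk* and *Vgf* are known as genes that neuronal activity or growth factors can induce.

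Several of these genes have a cAMP response element (CRE) close to their start, and these stretches are shown as sequence context for the members described below. Promoter windows from 250 bases before to 50 bases after the start of a RefSeq gene (GRCm38.p6) were given for 8 of the 10 members. *Penk* and *Vgf* had no window. The palindrome TGACGTCA, which reads the same on both strands, was present in the windows of 3 members. In the stretches below, each 30 bases long and read along the gene's strand, the match is in capitals.
Scg2: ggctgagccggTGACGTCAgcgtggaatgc
Chgb: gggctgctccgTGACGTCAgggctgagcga
Sst: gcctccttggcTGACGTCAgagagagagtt
Chga: ggggcggtcctaTGACGtaatttcctgggt
Cck: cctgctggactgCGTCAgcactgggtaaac
The match began 68 bases before the start of *Scg2* (chr1:79440076-79440105, minus strand), 72 bases before that of *Chgb* (chr2:132781559-132781588, plus strand) and 48 bases before that of *Sst* (chr16:23890874-23890903, minus strand). *Chga* had the shorter core TGACG 44 bases before its start (chr12:102554885-102554914, plus strand), and *Cck* had it on the other strand, as CGTCA, 47 bases before its start (chr9:121495724-121495753, minus strand). The palindrome was found in 1.79% of 32851 windows of the same length and the shorter core, on either strand and including the palindrome, in 20.8% of them. Windows of 7 members held the core, those of *Tac1* and *Adcyap1* among them, and the window of *Npy* did not. The octamers TGAATGAA, TGAATGGA, TCAATGAA and TCAATGGA, bound by capicua, were searched on both strands, and 3.84% of all windows but none of the members' windows held 1 of them. The RefSeq starts used here differ from the GENCODE M21 positions used below. By the latter, the stretches of *Scg2*, *Chgb* and *Sst* lie inside the gene, and those of *Chga* and *Cck* lie before it. All these matches are letters in a window and were not tested as sites.

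Cells were barcodes with at least 2000 UMIs (unique molecular identifiers, 1 for each RNA molecule captured) and at least 5 UMIs of *Reln*, the gene of reelin. There were 1003 control cells, with 2012 to 31769 UMIs each (median 6224), and 390 knockout cells, with 2769 to 33453 UMIs (median 6664). The limit on *Reln* left out 8 control and 16 knockout barcodes. No cell barcode was shared between the libraries. Each of the 8 CR cell markers listed for the check was detected in 25% or more of the cells, in either library, and *Calb2* was the marker past the fold between the genotypes, at 1.54 times the control level in the knockout (1.36 to 1.74). The 7 listed GABAergic markers summed to 3.33 CPM in control cells and 7.23 CPM in knockout cells, with *Lhx6*, *Dlx1* and *Dlx6os1* at 0. A level in CPM is the sum of a gene's UMIs over a group of cells, scaled to a total of 1000000 UMIs after mitochondrial and ribosomal protein genes (mt-, Rpl, Rps, Mrp) were set aside, and it needs no scaling by length because a molecule is counted once. The deleted gene itself gave little check of the labels, since *Cic* was at 58.9 CPM in control and 51.3 CPM in knockout cells and UMIs near the 3′ end need not cover the floxed exons. *Etv4* was at 1.97 and 70.9 CPM, and *Etv5* at 15.0 and 70.9 CPM. Of the CR cell markers, *Trp73*, *Lhx1*, *Lhx5*, *Calb2* and *Nhlh2* were higher in droplets of 20 to 100 UMIs, described below, than in cells of either library. *Ebf3*, *Cacna2d2* and *Ndnf* were lower there. *Calb2* was at 103.5 CPM in control cells and 565.9 CPM in control droplets, and at 159.4 and 721.7 CPM in the knockout. Intervals below are 95% exact intervals and cover counting error only, not the spread between mice. Those of levels and ratios take UMIs as independent, so they are too narrow for members spread unevenly over cells.

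Of the 10 members, 6 were detected widely enough to compare, each with at least 100 UMIs over both libraries. In control cells their levels fell in the order *Chgb*, *Cck*, *Scg2*, *Chga*, *Penk*, *Vgf*, and no neighbouring intervals overlapped. *Chgb*, a granin of the granule matrix, was at 521.8 CPM in control cells (3445 UMIs) and 471.1 CPM in knockout cells (1303 UMIs). It ranked 213 among the 20283 genes with a UMI in control cells. *Cck*, the cholecystokinin precursor, was at 155.4 CPM (1026 UMIs) in the control and 130.2 CPM (360 UMIs) in the knockout. *Scg2*, the precursor of secretoneurin, was at 75.4 CPM and 83.5 CPM, and *Chga*, a granin of endocrine and neuronal granules, at 54.7 CPM and 81.7 CPM. *Penk*, the enkephalin precursor, was at 36.4 CPM and 77.4 CPM, and *Vgf*, a growth factor-inducible granin-like precursor, at 16.1 CPM and 64.0 CPM. In knockout cells the order was the same, but the intervals of *Scg2* (73.1 to 95.0 CPM), *Chga* (71.4 to 93.1 CPM), *Penk* (67.4 to 88.5 CPM) and *Vgf* (54.9 to 74.2 CPM) all overlapped one another. The levels of these 4 members thus spanned 16.1 to 75.4 CPM in the control and 64.0 to 83.5 CPM in the knockout.

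**Figure D1:**
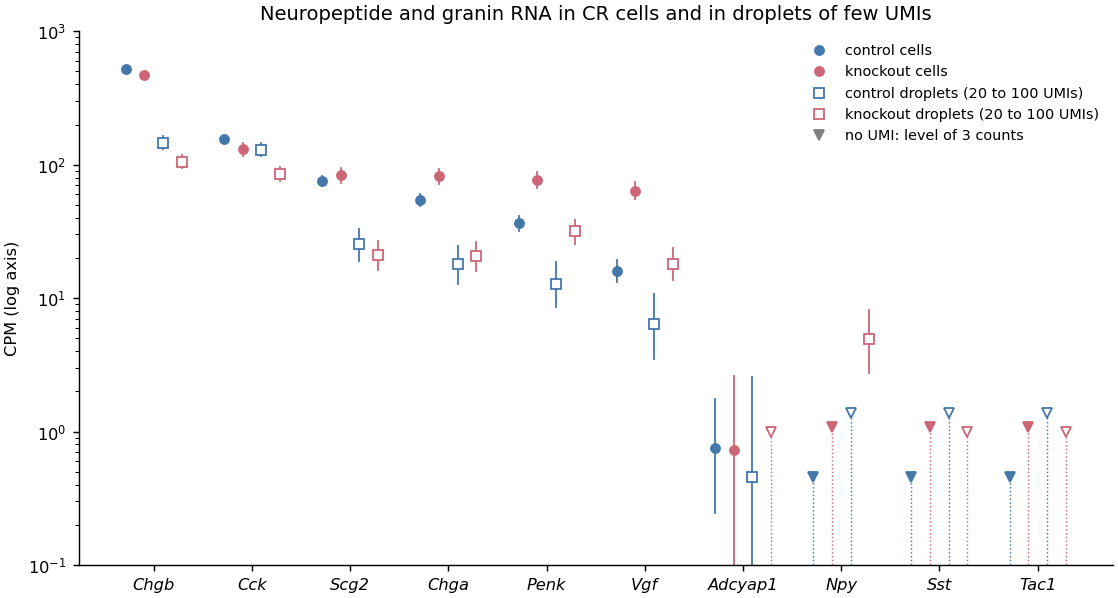
Level of each member in cells (filled circles) and in droplets of 20 to 100 UMIs (open squares) of the control (blue) and knockout (red) library, as CPM on a log axis. Bars are 95% Poisson intervals, and triangles mark the level of 3 counts where no UMI was found. *Penk* and *Vgf* lie higher in knockout than in control, in cells and in droplets alike.

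The other 4 members were absent or nearly so. *Sst* and *Tac1*, the precursors of somatostatin and substance P, had 0 UMIs in every barcode of both libraries, cells and droplets alike. *Npy* also had 0 UMIs in cells. A count of 0, taken as allowing 3 counts, leaves room for a share of up to 0.299% of control and 0.769% of knockout cells with a UMI, and a level of up to 0.454 CPM and 1.08 CPM. *Npy* had 3 UMIs in the whole control library and 22 in the whole knockout library, 15 of them in droplets of 20 to 100 UMIs and 7 in 2 of the 16 barcodes left out by the *Reln* limit. The *Npy* level in knockout droplets was 4.94 CPM, and the 3 counts that a count of 0 allows put knockout cells at no more than 0.220 times that level. *Adcyap1*, the precursor of the neuropeptide PACAP, had 5 UMIs in control cells, all in 1 cell, and 2 UMIs in knockout cells, in 2 cells. These 4 genes were left out of the counts below.

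The genotypes were compared to ask which members differ when *Cic* is lost. A gene was counted as past the fold when it had at least 100 UMIs over both groups of cells and a CPM ratio of at least 1.5, or of at most its inverse. Of the 6 members that could be counted, 2 were higher in knockout cells past this fold and none was lower. Over all 9442 genes that could be counted, 2.73% were higher and 1.66% lower, and their median ratio was 1.00 against 1.30 for the 6 members. *Vgf* had the largest ratio of the members, 3.99 (3.12 to 5.12), a difference of 2.00 on the log2 scale, and stood at rank 13 of the 9442 genes. *Penk* was 2.13-fold higher (1.76 to 2.57), at rank 42. *Chga* had a ratio of 1.49 (1.26 to 1.77), just short of the fold, at rank 269. *Scg2* had a ratio of 1.11 (0.943 to 1.30), with an interval that included 1. *Chgb* and *Cck* were slightly lower in knockout cells, at 0.903 (0.846 to 0.963) and 0.838 (0.741 to 0.945). Across the 13 alternatives that could change a ratio, by choosing or scaling the cells differently, the ratio stayed between 3.48 and 5.52 for *Vgf*, between 1.39 and 1.63 for *Chga* and between 0.727 and 0.844 for *Cck*.

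Because the pools differ in sex, the genotypes were also compared within cells assigned to 1 sex. In cells with a UMI of a Y-linked gene and none of *Xist* (702 control and 194 knockout cells), *Vgf* was at 17.7 CPM and 61.6 CPM, a ratio of 3.48 (2.55 to 4.76). In cells with a UMI of *Xist* and none of a Y-linked gene (227 and 176 cells), it was at 13.9 CPM and 71.8 CPM, a ratio of 5.15 (3.14 to 8.84). *Vgf* was thus higher in the knockout within either sex. *Penk* had a ratio of 2.54 (1.99 to 3.24) in the male cells, from 33.9 CPM to 86.1 CPM. In the female cells its ratio was 1.46 (1.05 to 2.02), from 48.8 CPM to 71.0 CPM, so that it ended just under the fold there. *Scg2* had ratios of 0.864 (0.683 to 1.08) in male and 1.55 (1.18 to 2.04) in female cells, and these intervals did not overlap. *Chga* was at 1.39 (1.10 to 1.73) and 1.63 (1.21 to 2.22), and *Cck* at 0.808 and 0.834. Each sex was represented by 1 to 3 mice per pool, and differences between sexes were not tested.

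The share of cells with a UMI was also compared at matched depth, where *Vgf* and *Penk* had intervals that did not overlap between the genotypes. For *Chga*, *Chgb* and *Cck*, whose ratio intervals left out 1, the intervals of the shares overlapped. Every cell was thinned at random to 2000 UMIs, which left out no cell. A *Vgf* UMI was then found in 2.19% (1.38 to 3.30) of control and 8.97% (6.33 to 12.3) of knockout cells, against 8.08% and 26.2% before thinning. *Penk* was found in 4.39% (3.21 to 5.85) and 9.23% (6.55 to 12.6) of thinned cells, against 11.3% and 18.5% before. *Chga* was found in 8.97% (7.28 to 10.9) and 13.1% (9.89 to 16.8), and these intervals overlapped. For *Scg2* the thinned shares were 13.2% (11.1 to 15.4) and 15.1% (11.7 to 19.1), for *Cck* 17.4% (15.1 to 19.9) and 13.8% (10.6 to 17.7) and for *Chgb* 57.4% (54.3 to 60.5) and 52.6% (47.5 to 57.6), with overlapping intervals in each case. In droplets of 20 to 100 UMIs, which hold free RNA, shares of these 6 members lay between 0.0482% and 1.02% in the control (median 89 UMIs) and between 0.0712% and 0.376% in the knockout (median 44 UMIs).

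Members differed in how their UMIs were spread over the cells. *Chgb* was broad: 873 of 1003 control cells held a UMI, 261 of them 5 or more, and the 100 cells with most *Chgb* held 30.6% of its UMIs. The paper already reports *Cck* as a selective marker of a cluster of these CR cells. Here *Cck* was patchy, with 679 control cells at 0, 16 cells at 10 or more and a top cell with 28 UMIs. The 100 cells with most *Cck* held 65.9% of its UMIs. Its variance over its mean was 2.44 in thinned control cells and 2.13 in thinned knockout cells, the highest of the members in either library. *Penk* was rarer, with 890 control cells at 0, 14 at 5 or more and a variance over mean of 1.60 in thinned control and 1.74 in thinned knockout cells. In the knockout, 318 of 390 cells had no *Penk* UMI, 15 had 5 or more and the top cell had 19, and without the top cell of each library the genotype ratio of *Penk* was 2.01. *Vgf* came mostly as single UMIs in the control (67 cells with 1, 12 with 2 to 4 and 2 with 5 or more). In the knockout, 58 cells had 1 *Vgf* UMI, 40 had 2 to 4 and 4 had 5 or more, so the difference was spread over many cells.

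**Figure D2:**
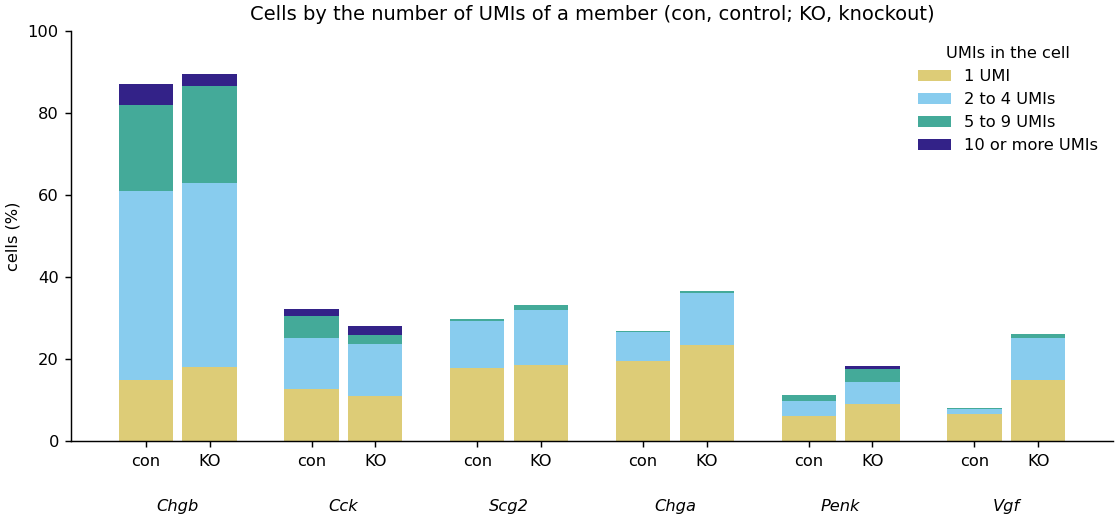
Percent of cells (not thinned) with 1, 2 to 4, 5 to 9 or 10 or more UMIs of 6 members, in 1003 control (con) and 390 knockout (KO) cells; the rest of each bar up to 100% is cells with none. *Chgb* is found in most cells, *Cck* and *Penk* have cells with many UMIs, and the *Vgf* bar is 8.08% in the control and 26.2% in the knockout.

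*Etv4* and *Etv5* are direct targets of capicua and marked, within the knockout library, the cells in which a target was detected. At least 1 UMI of either was found in 162 of 390 knockout cells (41.5%) and in 87 of 1003 control cells (8.67%). Knockout cells with such a UMI were somewhat deeper, with a median of 7266 UMIs against 6210. Of the 6 members, *Vgf* and *Penk* were past the fold in knockout cells with over without such a UMI and none was lower, beside 3.02% higher and 1.95% lower of the 5226 genes that could be counted. *Vgf* was at 96.9 CPM in knockout cells with the UMI and 37.7 CPM in those without, a ratio of 2.57 (1.86 to 3.58). *Penk* was at 97.7 CPM and 61.1 CPM, a ratio of 1.60 (1.21 to 2.12). *Chga* was at 96.1 CPM and 70.2 CPM, a ratio of 1.37 (1.04 to 1.79). *Scg2* had a ratio of 1.08 (0.826 to 1.41), *Cck* 0.864 (0.695 to 1.07) and *Chgb* 0.883 (0.789 to 0.987). Under the 19 other settings that could change a ratio, that of *Vgf* lay between 1.85 and 4.12. For *Penk* the ratio lay between 0.790 and 1.95, and the value below 1 came from the cells under the median depth. For *Chga* it lay between 0.986 and 1.85, and the value below 1 came from classes taken from thinned cells. The CR marker *Calb2* (ratio 1.90, 1.57 to 2.32) and *S100b* (2.02, 1.41 to 2.92) were also higher in knockout cells with such a UMI. Of 9 listed immediate early genes that could be counted, 2 were lower past the fold and none was higher. These 2 were *Egr1* (0.192, 0.103 to 0.332) and *Npas4* (0.615, 0.467 to 0.804). *Fos* (0.818), *Fosb* (0.748) and *Junb* (0.718) had intervals under 1, and the others had intervals that included 1. *Ier2* (0.444, 0.260 to 0.733) was below the minimum of UMIs. The part of all these genes in the *Vgf* and *Penk* values was not tested.

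In thinned knockout cells, a *Vgf* UMI was found in 16.0% (10.8 to 22.6) of cells with and 3.95% (1.82 to 7.36) of cells without an *Etv4* or *Etv5* UMI. These intervals did not overlap. The same shares were 13.6% (8.71 to 19.8) and 6.14% (3.40 to 10.1) for *Penk*, with overlapping intervals. The *Etv4* and *Etv5* UMIs were counted before thinning, so the split still held the difference in depth. With classes from thinned cells (83 with and 307 without), the CPM ratio was 1.98 for *Vgf* and 1.18 for *Penk*. It was 0.986 for *Chga*, 0.81 for *Scg2*, 0.92 for *Cck* and 0.99 for *Chgb*. By number of *Etv4* and *Etv5* UMIs in a knockout cell, *Vgf* was at 37.7 CPM with 0 (228 cells), 75.7 CPM (53.0 to 104.8) with 1 (67 cells), 106.5 CPM (70.2 to 155.0) with 2 (36 cells) and 112.1 CPM (84.7 to 145.6) with 3 or more (59 cells). The intervals of the last 3 groups overlapped. *Penk* was at 61.1, 105.1, 86.8 and 96.1 CPM in the same groups, with no further step beyond the first UMI. *Chga* was at 70.2, 100.9, 122.3 and 78.1 CPM.

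**Figure D3:**
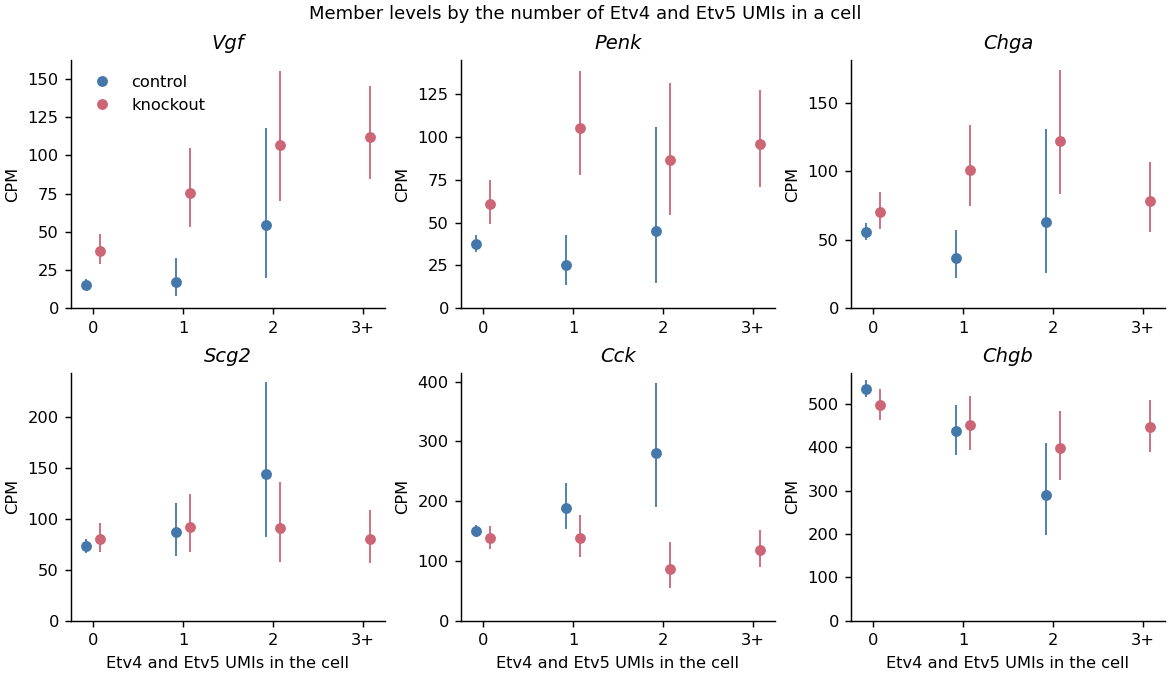
CPM of 6 members in control (blue) and knockout (red) cells grouped by their number of *Etv4* and *Etv5* UMIs, with 95% Poisson intervals; the 4 control cells with 3 or more are not drawn. *Vgf* lies at 37.7 CPM in knockout cells with none and at 112.1 CPM in those with 3 or more, while *Scg2* and *Chgb* stay within overlapping intervals across the knockout groups.

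The same split gave other values in the control library. *Vgf* was at 22.5 CPM in control cells with and 15.3 CPM in those without an *Etv4* or *Etv5* UMI, a ratio of 1.47 (0.788 to 2.55) that rests on 15 UMIs in the first group. *Penk* was at 27.0 CPM and 37.4 CPM, a ratio of 0.721 (0.419 to 1.17). *Cck* was at 202.2 CPM and 150.1 CPM, a ratio of 1.35 (1.12 to 1.62), and *Chgb* at 404.4 CPM and 535.0 CPM, a ratio of 0.756 (0.665 to 0.856). No member was past the fold here, where 3.07% of 8304 genes were higher and 7.85% lower. The difference between the libraries in this split was not tested.

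Knockout cells without any *Etv4* or *Etv5* UMI also differed from control cells without one. *Vgf* was at 37.7 CPM in the former and 15.3 CPM in the latter, a ratio of 2.46 (1.74 to 3.46), and *Penk* at 61.1 and 37.4 CPM, a ratio of 1.63 (1.27 to 2.09). These 2 members were past the fold and none was lower, beside 2.47% of 8730 genes higher and 2.66% lower. *Chga* had a ratio of 1.26 (1.01 to 1.57), *Scg2* 1.10 (0.894 to 1.35), *Chgb* 0.929 (0.857 to 1.00) and *Cck* 0.923 (0.791 to 1.07). A cell without a UMI may still hold *Etv4* or *Etv5* RNA at this depth, and whether a given knockout cell had lost *Cic* was not measured.

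Within the sexes, *Vgf* kept its ratio between knockout cells with and without an *Etv4* or *Etv5* UMI, at 2.48 (1.58 to 3.96) in male and 2.51 (1.57 to 4.14) in female cells. *Penk* had ratios of 1.40 (0.964 to 2.02) in male and 1.90 (1.21 to 3.05) in female cells. *Cck* turned direction: it was at 149.0 CPM with and 108.6 CPM without the UMI in male cells, a ratio of 1.37 (1.01 to 1.86), and at 90.5 and 186.1 CPM in female cells, a ratio of 0.486 (0.346 to 0.677). The pooled *Cck* value of 0.864 lay between these 2 ratios. The intervals take UMIs as independent, but 71.4% of the *Cck* UMIs of knockout cells lay in the 39 cells with most. They are therefore too narrow for *Cck*. The same holds for *Penk*, with a variance over mean of 1.60 in thinned control and 1.74 in thinned knockout cells. The difference between the sexes was not tested.

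**Figure D4:**
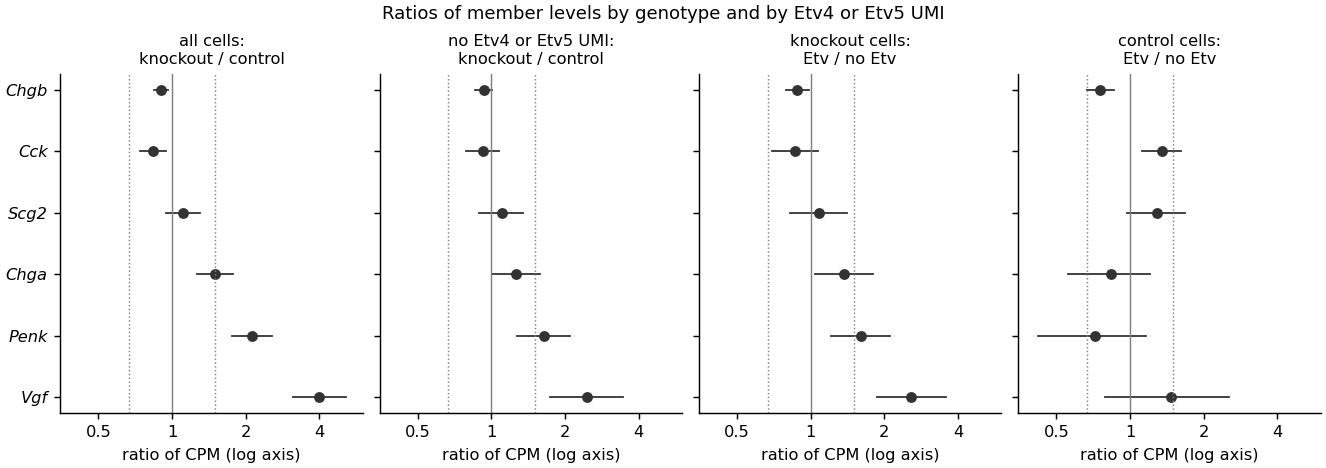
Ratio of CPM for 6 members on a log axis, with 95% exact intervals, for 4 comparisons: knockout over control in all cells, the same in cells without an *Etv4* or *Etv5* UMI, and cells with over without such a UMI in the knockout and in the control. The solid line marks 1 and the dotted lines 1.5-fold either way. *Vgf* and *Penk* lie beyond the right dotted line in the first 3 panels and *Chgb* lies just under 1 in each of them.

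Droplets of 20 to 100 UMIs were read as free RNA, 29040 in the control and 75813 in the knockout. In the control, 5 of 6 members were past the fold in cells over droplets and none was under it, beside 40.3% higher and 32.7% lower of 9358 genes. *Chgb* was 3.58-fold higher in cells (3.19 to 4.02), *Chga* 3.06-fold, *Scg2* 2.99-fold, *Penk* 2.83-fold and *Vgf* 2.50-fold. *Cck* was nearly as abundant in control droplets, at 129.9 CPM, as in control cells, with a ratio of 1.20 (1.05 to 1.37). In the knockout all 6 were past the fold, beside 37.2% higher and 35.8% lower of 8184 genes. *Chgb* was 4.46-fold higher in knockout cells than droplets (3.94 to 5.06), *Vgf* 3.54-fold, *Penk* 2.45-fold and *Cck* 1.52-fold (1.29 to 1.79). *Cck* was no longer past the fold with droplets of 50 to 100 UMIs (1.46) or without the cell that held most of it (1.46).

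The droplets themselves differed between the libraries. The window of 20 to 100 UMIs fell on unlike droplets, with a median of 89 UMIs in the control and 44 in the knockout. Its part in the ratios below was not tested. *Penk* was at 12.9 CPM (28 UMIs) in control and 31.6 CPM (96 UMIs) in knockout droplets, a ratio of 2.46 (1.60 to 3.89). *Vgf* was at 6.43 CPM (14 UMIs) and 18.1 CPM (55 UMIs), a ratio of 2.82 (1.55 to 5.49), below the minimum of 100 UMIs for the count. *Cck* was lower in knockout droplets, at 85.6 against 129.9 CPM, a ratio of 0.659 (0.555 to 0.782), and *Chgb* was at 105.6 and 146.0 CPM, a ratio of 0.724 (0.618 to 0.848). Of 5 members counted, *Penk* was past the fold as higher and *Cck* as lower, where 3.81% of 7156 genes were higher and 1.72% lower. When the mean UMIs of a droplet were subtracted from each cell, the genotype ratios in cells were 3.97 for *Vgf* and 2.12 for *Penk*.

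A small group of CR cells had a high share of nuclear genes of oxidative phosphorylation. At a limit of 2% of UMIs over 98 such genes, the control library had 78 of them and the knockout library 29, with medians of 13556 and 14508 UMIs against 6065 and 6410 in the other cells. In the control, *Chga* was at 23.5 CPM against 59.6 CPM, a ratio of 0.395 (0.241 to 0.614), *Vgf* at 6.72 against 17.5 CPM, a ratio of 0.384 (0.138 to 0.865), and *Scg2* at 50.4 against 79.3 CPM, a ratio of 0.636 (0.457 to 0.864). Of the 6 members, these 3 were past the fold as lower and none was higher, beside 28.4% lower and 24.8% higher of 8304 genes, and the 6 had a median ratio of 0.685 against 0.895 for all genes counted. *Chgb* had a ratio of 0.735 (0.657 to 0.821), and *Cck* and *Penk* had ratios of 1.16 (0.977 to 1.38) and 0.879 (0.575 to 1.30). At a limit of 1.5%, *Scg2* (0.685) was no longer past the fold. All 5 *Adcyap1* UMIs of the control lay in 1 of these cells.

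In the knockout, the same split had *Chga* at 43.1 against 88.1 CPM, a ratio of 0.489 (0.279 to 0.802), *Vgf* at 35.5 against 68.7 CPM, a ratio of 0.516 (0.276 to 0.891), and *Chgb* at 316.8 against 496.8 CPM, a ratio of 0.638 (0.526 to 0.767). *Cck* was higher, at 202.7 against 118.1 CPM, a ratio of 1.72 (1.32 to 2.21). Thus 3 members were lower and 1 higher past the fold, beside 27.7% lower and 22.1% higher of 5226 genes, and the 6 had a median ratio of 0.750 against 0.880 for all genes counted. These calls move with the limit, as 20 knockout cells had a share between 1.5% and 2.5%. At 2.5%, *Chga* (0.740) and *Cck* (1.39) were no longer past the fold and *Penk* (1.65) was, and at 1.5% *Chgb* (0.716) was not. Without the cells of high respiratory share, the genotype ratio was 3.92 for *Vgf* and 2.01 for *Penk*.

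Early gene RNA, known to be induced by activity and by cell dissociation, was compared because *Vgf*, *Scg2* and *Penk* are activity-regulated. The 14 listed immediate early genes summed to 2068 CPM in control and 1947 CPM in knockout cells, and to 5227 and 4910 CPM in droplets. Between the genotypes, *Egr1* (ratio 0.406, 0.330 to 0.497) and *Ier2* (ratio 0.617, 0.479 to 0.786) were lower in knockout cells past the fold and none was higher, of 11 that could be counted, beside the 1.66% lower and 2.73% higher of all genes. In thinned control cells, the 334 cells with most early gene UMIs (4 to 26) were set against the 334 with fewest (0 to 2). *Vgf* was at 23.7 CPM (15 UMIs) in the former and 6.33 CPM (4 UMIs) in the latter, a ratio of 3.75 (1.20 to 15.5). *Scg2* had a ratio of 1.58 (1.04 to 2.44), on 60 and 38 UMIs. *Penk* was lower, at 14.2 CPM (9 UMIs) against 44.3 CPM (28 UMIs), a ratio of 0.322 (0.134 to 0.701). *Vgf*, *Scg2* and *Penk* were all below the minimum of UMIs for the count in this split. The members that could be counted were *Cck*, with a ratio of 1.39 (1.06 to 1.84), and *Chgb*, with 0.98 (0.83 to 1.14). Neither was past the fold. In the knockout, 130 cells were on each side. The ratios were 1.07 (0.479 to 2.38) for *Vgf*, 1.10 (0.562 to 2.16) for *Scg2* and 0.535 (0.258 to 1.06) for *Penk*. Each of these intervals included 1. These members were again below the minimum of UMIs, and *Chgb*, which could be counted, had a ratio of 0.985 (0.748 to 1.295).

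Cells with a *Cck* UMI were also set against those without, in thinned cells. Of the other members, *Scg2* was at 147.4 CPM in the 175 control cells with and 67.6 CPM in the 828 without a *Cck* UMI, a ratio of 2.18 (1.52 to 3.09). In the 54 and 336 knockout cells, *Scg2* was at 205.4 and 71.0 CPM, a ratio of 2.90 (1.64 to 4.96). *Penk* had a ratio of 3.10 (1.75 to 5.40) in the control, on 23 and 35 UMIs, and of 1.15 (0.469 to 2.48) in the knockout, on 8 and 43 UMIs. *Chgb* had ratios of 0.947 (0.797 to 1.12) and 0.685 (0.463 to 0.983), and *Chga* of 0.944 (0.515 to 1.63) and 1.10 (0.474 to 2.24). *Scg2* was the member that was higher in *Cck* cells of both libraries with an interval that left out 1.

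The genes whose thinned counts went most closely with a member were named for *Cck*, *Scg2* and *Chgb*, among 3407 genes found in at least 10% of thinned control cells. For *Cck* they were *Cacna2d3* (Pearson's r 0.215 over 1003 control and 0.167 over 390 knockout cells), *Rell1* (0.191 and 0.173) and *Gfra1* (0.175 and 0.0874). For *Chgb* they were *Pnoc*, the nociceptin precursor (0.186 and 0.136), *Lrrtm4* (0.136 and 0.152) and *Trpm3* (0.135 and 0.0382). For *Scg2* they were *Kcnip1* (0.152 and 0.103), *Tm2d3* (0.152 and 0.0455) and *4930545L23Rik* (0.150 and -0.00158). The cells of a value share 1 library, and all of these correlations are weak.

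The machinery that makes and fills granules was measured with 14 listed genes. Of the 13 that could be counted, none was past the fold in either direction, which is close to the background of 2.73% higher and 1.66% lower, and their median ratio was 1.02 against 1.00 for all genes counted. *Cadps2*, below the minimum of UMIs, was at 4.70 CPM in control and 11.6 CPM in knockout cells, a ratio of 2.46 (1.46 to 4.18). *Cpe*, which encodes carboxypeptidase E, was at 1515 CPM in control and 1544 CPM in knockout cells. *Ptprn2*, a granule membrane protein, was at 669.2 and 596.9 CPM. *Pcsk1n*, an inhibitor of prohormone convertase 1, was at 650.6 and 766.1 CPM, but was still higher in droplets, at 1018 and 923.1 CPM. *Pcsk1* and *Pcsk2*, which encode the prohormone convertases, had ratios of 0.848 (0.740 to 0.969) and 1.10 (1.01 to 1.19). None of the 12 list genes that could be counted was past the fold by *Etv4* or *Etv5* UMI either.

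Of 43 other neuropeptide genes, 16 had no UMI in cells, 7 could be counted, and their median ratio was 1.07. *Rln1*, a relaxin family gene, was past the fold as higher, at 12.9 CPM (85 UMIs) in control and 20.6 CPM (57 UMIs) in knockout cells, a ratio of 1.60 (1.12 to 2.27), with 7 of the knockout UMIs in 1 cell. That is 1 of 7 genes, beside 2.73% of all genes. The most abundant were *Nppc*, the C-type natriuretic peptide precursor, at 309.8 and 285.3 CPM, *Pnoc* at 222.1 and 270.4 CPM, and *Npb*, the neuropeptide B precursor, at 65.7 and 65.1 CPM. *Npb* was at 75.3 CPM in control and 58.6 CPM in knockout droplets, near its level in cells. *Nppc* and *Pnoc* were thus more abundant in CR cells than *Cck*.

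Listed receptors of the CCK, NPY, somatostatin, tachykinin, opioid, PACAP and VIP families were scarce. Receptors for the peptides of *Nppc*, *Pnoc* and *Npb* were not on the list. None of 19 listed receptor genes reached 100 UMIs, 6 had no UMI in cells, and the list summed to 25.1 CPM in control and 23.9 CPM in knockout cells. The highest in control cells were *Adcyap1r1*, the PACAP receptor, at 8.33 and 7.95 CPM, *Tacr1*, the substance P receptor, at 5.00 and 4.70 CPM, and *Npy1r* at 3.79 and 2.89 CPM, and *Sstr2* was above *Npy1r* in knockout cells, at 4.34 CPM. Their ligand genes *Adcyap1*, *Tac1* and *Npy* were at or near 0 in the same cells.

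**Figure D5:**
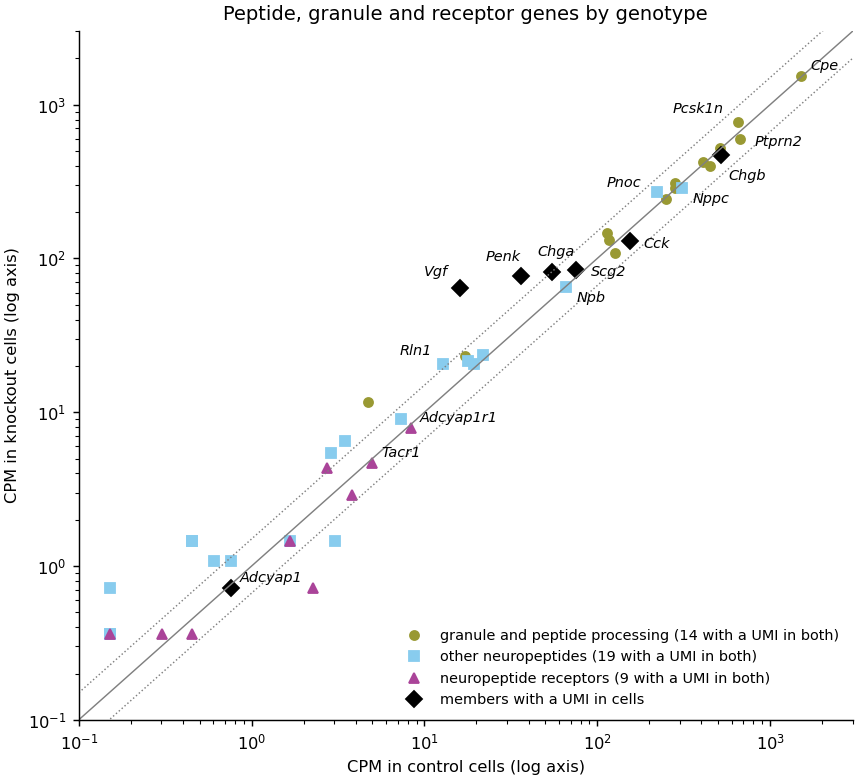
CPM in knockout against control cells, on log axes, for genes with a UMI in the cells of both libraries. Black diamonds are the members, and the other marks are the listed genes of granules and peptide processing, other neuropeptides and receptors. The solid line marks equal levels and the dotted lines 1.5-fold; *Vgf* and *Penk* lie above the upper dotted line, while the granule genes of more than 100 CPM lie between the lines.

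Many listed markers of other cell types were scarce, but some were not, and some differed between the genotypes. In control cells *Rgs5* was at 81.0 CPM (a UMI in 31.8% of cells) and *Cspg4* at 60.0 CPM (30.3%). *Fibcd1* was at 46.4 CPM (21.8%) and *Pecam1* at 31.2 CPM (16.4%) there. The 6 listed astrocyte markers summed to 36.4 CPM in control and 55.0 CPM in knockout cells, of which *S100b* was 26.7 and 49.2 CPM. *Aqp4* and *Gja1* had 6 and 15 UMIs in control and none in knockout cells, with 4 and 13 of these in their top control cells. The 6 oligodendrocyte lineage markers summed to 73.2 and 94.4 CPM, the 5 microglia markers to 36.5 and 32.2 CPM, the 5 endothelial and mural markers to 114.8 and 105.6 CPM, and the 7 granule and pyramidal neuron markers to 63.8 and 64.4 CPM. *S100b* was 1.84-fold higher in knockout cells (1.46 to 2.32), *Cspg4* 1.30-fold (1.09 to 1.53) and the GABAergic list's *Erbb4* 2.86-fold (1.36 to 6.11, on 18 and 15 UMIs), and *Gfap* had 2 UMIs in control and 6 in knockout cells. The part of other cells in the *Vgf* and *Penk* differences was not tested. By position in GENCODE M21 on GRCm38, *Vgf* (ENSMUSG00000037428) lies on chromosome 5 from 137026392 to 137033351 and overlaps no other gene. *Penk* (ENSMUSG00000045573), on chromosome 4 from 4133531 to 4138819, overlaps the noncoding gene *A830012C17Rik* on the other strand, and the strand that was counted was not given in the sources used here, so its counts are uncertain to that extent.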

How the data were processed

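The authors deposited raw UMI counts per gene and barcode for 2 libraries, before any cell was called, made by 10x 3′ sequencing and Cell Ranger. The file header names Cell Ranger 4, and the submitters' processing notes name Cell Ranger 8.0.1 and mm39 where the methods name mm10. Whether intronic reads were counted is not given in the sources used here. Gene positions were matched by identifier for 32158 of 32285 genes. The libraries held 16336796 (control) and 6777071 (knockout) UMIs. Counts were summed over cells in Python with numpy and scipy. CPM got exact Poisson intervals, ratios the exact interval for 2 Poisson counts and shares Clopper-Pearson intervals. A printed ratio against 0 was taken against 3 counts. In the counts of genes past the fold, a gene with 0 UMIs on 1 side was taken as past it. With 1 library per genotype no test was made. The ratio, its interval and the fold call were tested on simulated Poisson sums, and thinning for its totals. The simulated sums lack the uneven spread of UMIs over cells.

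Members and lists were chosen with earlier results of these data known. Every member was named, as were the 3 most abundant genes of each list, list genes past the fold and the 3 genes most correlated with a member. Alternatives covered scaling, thinning, the limits on cells and droplets, sex, fold and minimum. Cells were not clustered and doublets were not removed.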

Additional observations from a re-analysis of the deposited data

How the results depend on the processing

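No paired analysis was possible because each genotype is 1 library. The count of 2 members past the fold between the genotypes was 2 or 3 under all 17 alternatives, but the members changed. In thinned cells *Vgf* (ratio 5.52) fell under the minimum of UMIs, and *Penk* (2.27) and *Chga* (1.61) were past the fold. In female cells *Vgf* (5.15), *Scg2* (1.55) and *Chga* (1.63) were past it, and *Penk* (1.46) was not. The filter on GABAergic markers removed no cell. Over the 13 alternatives that could change a ratio, 71 of 78 member ratios stayed inside the counting interval, and *Penk* ranged from 1.46 to 2.54. Between knockout cells with and without an *Etv4* or *Etv5* UMI, the count of 2 became 1 with the mean of single-cell CPM, a 2-fold limit, classes from thinned cells, *Etv5* alone, male cells (*Chga*, 1.55) or female cells (*Cck*, 0.486, lower); *Vgf* had 88 UMIs in either sex, under the minimum, with ratios of 2.48 and 2.51. It became 0 in thinned cells (1 member reached 100 UMIs) and below the median depth (2 members did), where the *Penk* ratio was 0.790. With *Etv4* alone it became 3, with *Vgf* (2.04) and *Penk* (1.87) higher and *Cck* (0.621) lower. With *Etv5* alone the ratios were 1.85 for *Vgf*, 1.26 for *Penk* and 1.15 for *Cck*. With control droplets of 10 to 50 UMIs, 2 members in place of 5 were past the fold. They were *Scg2* (2.11), on 1 droplet UMI, and *Vgf*, which had 0 UMIs in these droplets and so no ratio. *Chga* and *Chgb* had ratios of 0.766 and 0.860. Those 1276 droplets held 28004 UMIs after mitochondrial and ribosomal protein genes were set aside, with 2 of *Chga* and 17 of *Chgb*. In thinned cells, 1 member in place of 3 (control) and of 4 (knockout) was past the fold for cells of high respiratory share, as 3 and 1 members reached 100 UMIs. With knockout droplets of 50 to 100 UMIs or without the leading cell, 5 members in place of 6 were past the fold. Other causes were not tested. Depth limits *Vgf* most, at 106 UMIs in control cells.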
